A study of Mus musculus with 12 samples.

Results

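The genes described here are 9 cytokine genes of mouse brain: the inflammatory cytokines Il1a, Il1b, Il6 and Tnf, the anti-inflammatory Il10 and Tgfb1, the inflammasome cytokine Il18, and the interferon ligands Ifng and Ifnb1. They were chosen by name, and all 9 of 9 were measured, among 12393 genes in all. Each had 1 probe set of its own. RNA of whole brain from adult, untreated mice kept free of specific pathogens was hybridised to 12 Affymetrix 3' expression arrays, 3 for each of 4 genotypes. The genotypes were wild type (WT), mice without Usp18 (USP18ko), mice without the interferon receptor gene Ifnar1 (IFNARko) and mice without both genes (USP18ko:IFNARko, the double knockout). The labels name no strain, sex or kind of allele. They also leave unsaid whether replicates came from separate animals, so a p-value here covers only the scatter among these samples, which could be technical. The series was made to ask what USP18 does in the central nervous system, and the question for these 9 genes is whether brains with a strong interferon response also differed in transcripts of classic inflammatory cytokines, or of the interferons themselves.

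Interferon-beta and the interferon-alphas bind a receptor that contains IFNAR1 and switch on a broad antiviral program, and USP18 restrains signalling from that receptor. Interleukin-1, interleukin-6 and tumour necrosis factor are made mainly by activated myeloid cells and glia, largely through the transcription factor NF-kappa-B, and drive acute inflammation. Interleukin-1-beta and interleukin-18 are made as inactive precursors, so their transcript levels say nothing of the released, active cytokine.

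Promoter sequences are printed for 3 members, taken for their kappa-B matches (Ifnb1, Il6) or their measured values (Il1b), beside 2 strongly interferon-induced genes as examples of matches. Each is the stretch of 250 bases before the RefSeq transcript start (build GRCm38.p6), written 5′ to 3′ on the gene's strand, with motif matches in capitals. Ifnb1, encoding interferon-beta, lies at chr4:88522795-88523044 on the minus strand, and its capitals mark a kappa-B consensus, to which NF-kappa-B binds. Il6 lies at chr5:30012864-30013113 on the plus strand, and its capitals also mark a kappa-B consensus. Il1b lies at chr2:129371140-129371389 on the minus strand and held no match. Ifit1 lies at chr19:34640639-34640888 on the plus strand, and its capitals mark 2 cores of the interferon-stimulated response element (ISRE), the site of the interferon-activated factor ISGF3. Cxcl10 lies at chr5:92348890-92349139 on the minus strand, and its capitals mark, in order, 1 ISRE core and 2 kappa-B consensus matches.
Ifnb1: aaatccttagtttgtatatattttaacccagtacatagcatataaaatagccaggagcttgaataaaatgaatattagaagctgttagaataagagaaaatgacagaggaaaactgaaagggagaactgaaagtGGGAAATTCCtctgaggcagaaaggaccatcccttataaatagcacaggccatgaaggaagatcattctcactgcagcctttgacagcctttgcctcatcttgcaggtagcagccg
Il6: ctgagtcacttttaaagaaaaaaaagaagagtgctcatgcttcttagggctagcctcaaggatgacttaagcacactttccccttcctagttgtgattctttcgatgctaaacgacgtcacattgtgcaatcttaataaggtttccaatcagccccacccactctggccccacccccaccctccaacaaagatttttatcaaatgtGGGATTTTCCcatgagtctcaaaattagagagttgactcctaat
Il1b: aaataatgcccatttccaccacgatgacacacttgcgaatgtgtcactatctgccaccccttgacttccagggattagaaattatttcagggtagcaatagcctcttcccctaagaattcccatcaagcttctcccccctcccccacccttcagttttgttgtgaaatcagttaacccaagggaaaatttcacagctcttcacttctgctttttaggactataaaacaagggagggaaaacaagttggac
Ifit1: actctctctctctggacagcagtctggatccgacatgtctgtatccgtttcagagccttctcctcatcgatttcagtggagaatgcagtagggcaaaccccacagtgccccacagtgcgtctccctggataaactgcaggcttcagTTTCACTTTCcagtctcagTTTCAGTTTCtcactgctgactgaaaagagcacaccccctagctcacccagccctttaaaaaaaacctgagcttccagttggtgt
Cxcl10: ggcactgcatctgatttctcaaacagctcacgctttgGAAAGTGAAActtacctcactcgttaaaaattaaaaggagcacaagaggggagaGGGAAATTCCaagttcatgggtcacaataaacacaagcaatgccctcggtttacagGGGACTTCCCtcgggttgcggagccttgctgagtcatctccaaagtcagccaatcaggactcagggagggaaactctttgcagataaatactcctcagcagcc

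Windows were listed for 8 of the 9 members, all but Il10. The ISRE core (GAAANNGAAA), searched on both strands, was in 0 of these 8 windows, against 978 of all 32851 windows of this length (2.98%), so a count of 0 among 8 does not set them apart. The GAS element (TTCNNNGAA), an element of interferon-gamma responses, was in 1 of the 8, that of Ifng itself, and in 7.02% of all windows. The kappa-B consensus was in 2 of the 8, Il6 and Ifnb1, and in 3.90% of all windows. A match is a run of letters and not a shown binding site, and no match says only that these letters are not in this window.

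All levels below are log2 signals as the authors deposited them, so a difference of 1 is a 2-fold difference in signal. Signals of different probe sets cannot be ranked against each other, and no detection calls were used, so a low level may be at background. Differences were tested with limma in 1 fit of all 12 arrays, adjusted by Benjamini-Hochberg over the 12393 genes, with a threshold of 0.05 on the adjusted p for calling a gene. In whole-brain RNA, fewer cells of a type and less RNA per cell cannot be told apart. As a check of the labels, Ifnar1 read 7.44 to 8.21 where the gene was intact and 6.24 to 6.68 in IFNARko and the double knockout. Usp18 read 4.04 to 4.36 in WT and 3.50 to 3.76 in the other 9 arrays, IFNARko included. Whether these probes lie in the deleted parts is not known here, and probes outside them check nothing. IFNARko replicate 1 stood apart, with a 3' minus 5' actin difference of 1.48, a sign of RNA quality, against 0.20 to 0.54 in the other 11 arrays. The sex-linked transcript Xist set the double knockout apart from USP18ko and from IFNARko, so genotype and sex cannot be told apart in those comparisons. Eif2s3y, also sex-linked, was far lower in double knockout replicates 1 and 3 (3.05 and 3.22) and in WT replicate 1 (3.18). WT replicate 1 also read 10.17 for Xist, against 5.26 and 5.11 in WT replicates 2 and 3 and 5.03 to 5.69 in USP18ko. WT thus mixed both patterns, and the part of sex in USP18ko against WT was not settled. Double knockout replicate 2 carried both signals, with 10.34 for Xist and 7.16 for Eif2s3y, near the Eif2s3y of USP18ko replicate 1 (7.26). A covariate for Eif2s3y thus does not follow Xist in that double knockout array.

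None of the 9 cytokine genes was called in USP18ko against WT (0 of 9), although the interferon-induced Ifit1 was higher by 4.87 log2 units in the same arrays. Of 14 measured interferon-induced comparison genes, 12 rose, with a list median of 3.47, whereas the members had a median of 0.12 and all genes tested had a median of -0.02. Over all genes, 1.15% were called in this comparison, so a count of 0 of 9 is near the background. At an unadjusted p under 0.05 in limma, 3 of the 9 members (Il1a, Il1b and Tgfb1) passed, all higher, against 570 of all genes in either direction (4.6%). In the 3 USP18ko arrays Ifit1, an antiviral RNA-binding protein, read 8.52, 8.36 and 8.84, against 3.52 to 3.90 in WT and 3.11 to 3.82 elsewhere. The chemokine Cxcl10 read 9.42, 8.77 and 8.57 in USP18ko, against 3.49 to 4.04 in the other 9 arrays.

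**Figure D1:**
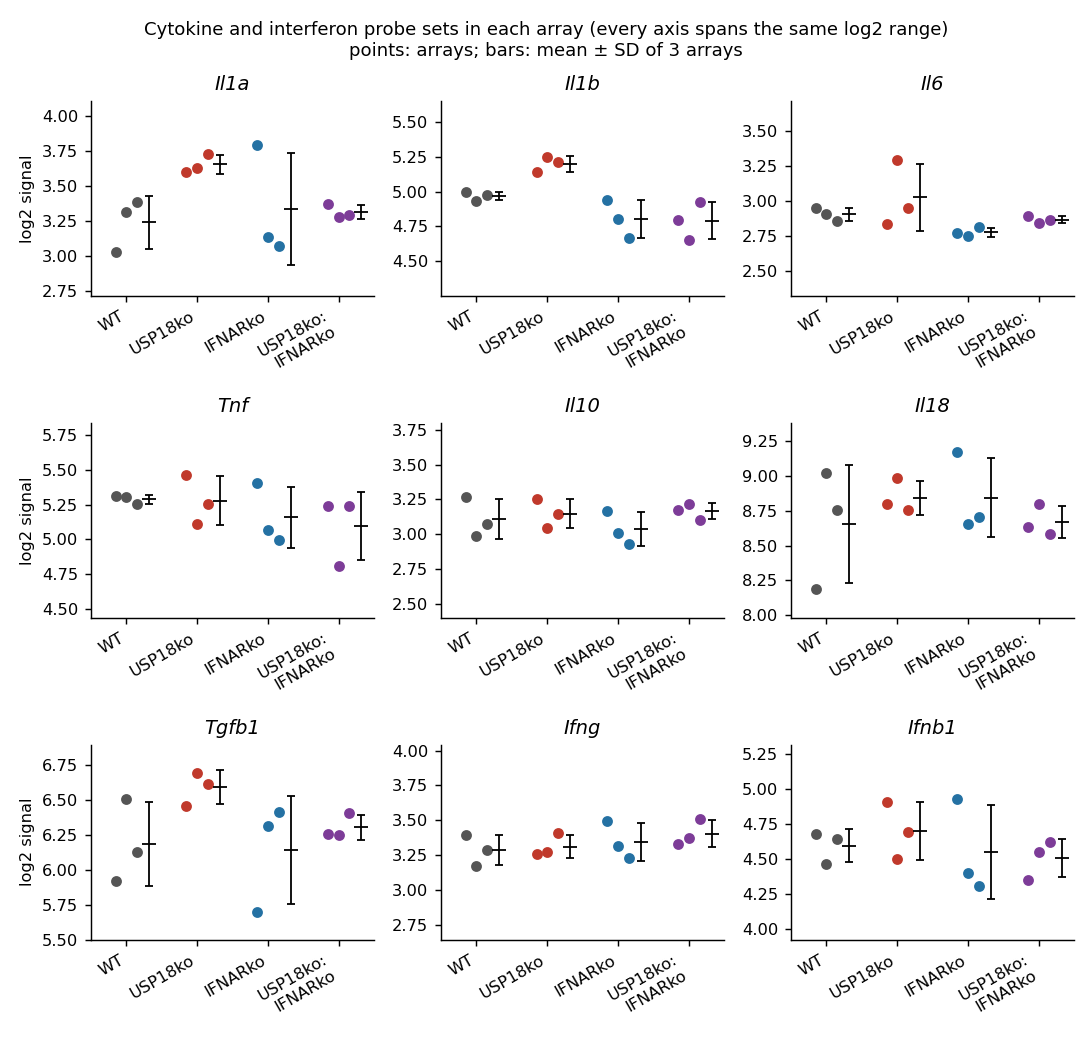
Log2 signal of the 9 cytokine genes in each array, by genotype, with points for the 3 arrays of a genotype and bars for mean ± SD. For Il1b the 3 USP18ko arrays (5.14 to 5.25) lie above all other arrays, and for Il1a they lie above the WT arrays but not above IFNARko replicate 1 (3.80).

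Il1b, the secreted interleukin-1 of myeloid cells, was the member whose USP18ko arrays stood apart from all other genotypes. Its log2 signal was 4.99, 4.94 and 4.98 in WT and 5.14, 5.25 and 5.21 in USP18ko. IFNARko arrays read 4.94, 4.80 and 4.67 and double knockout arrays 4.80, 4.66 and 4.92. All 3 USP18ko arrays lay above all 9 others, with a gap of 0.14 to the nearest. The difference to WT was 0.23 (SE 0.10, 95% interval 0.005 to 0.456, adjusted p = 1.00), a fold of 1.17. Against the mean of the other 3 genotypes it was 0.34 (SE 0.085, 95% interval 0.16 to 0.53, adjusted p = 0.072), which misses the threshold. In that comparison 0 of 9 members were called, 3 had an unadjusted p under 0.05 in limma (Il1a, Il1b and Tgfb1), and 1.77% of all genes were called (6.54% at the unadjusted p). Il1b was the only 1 of the 9 members with USP18ko above every other array, a pattern that 2.15% of all genes showed. It passed the threshold under a few other settings. Without IFNARko replicate 1 the difference was 0.37 (adjusted p = 0.016), and with array weights it was also 0.37 (adjusted p = 0.016). In this comparison 219 genes were called in the fit reported, 310 without IFNARko replicate 1 and 389 with array weights. The fit with array weights gave a convergence warning.

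Il1a, the interleukin-1 that also acts as a damage signal, was higher in every USP18ko array than in every WT array but was not called. It read 3.03, 3.31 and 3.38 in WT and 3.60, 3.63 and 3.73 in USP18ko, a difference of 0.41 (SE 0.17, 95% interval 0.05 to 0.78, adjusted p = 0.846). IFNARko arrays read 3.80, 3.13 and 3.07, and double knockout arrays 3.37, 3.28 and 3.29. The highest of all 12 arrays was IFNARko replicate 1, the array with the high actin ratio, whose part in this value was not tested. Against the mean of the other 3 genotypes the USP18ko difference was 0.36 (95% interval 0.06 to 0.66, adjusted p = 0.504), and without IFNARko replicate 1 it was 0.44 (adjusted p = 0.011). Il1a and Il1b were the 2 of 9 members with USP18ko above WT in every array, and 4.07% of all genes showed that pattern. None of the 9 showed the opposite pattern, against 5.88% of all genes.

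**Figure D2:**
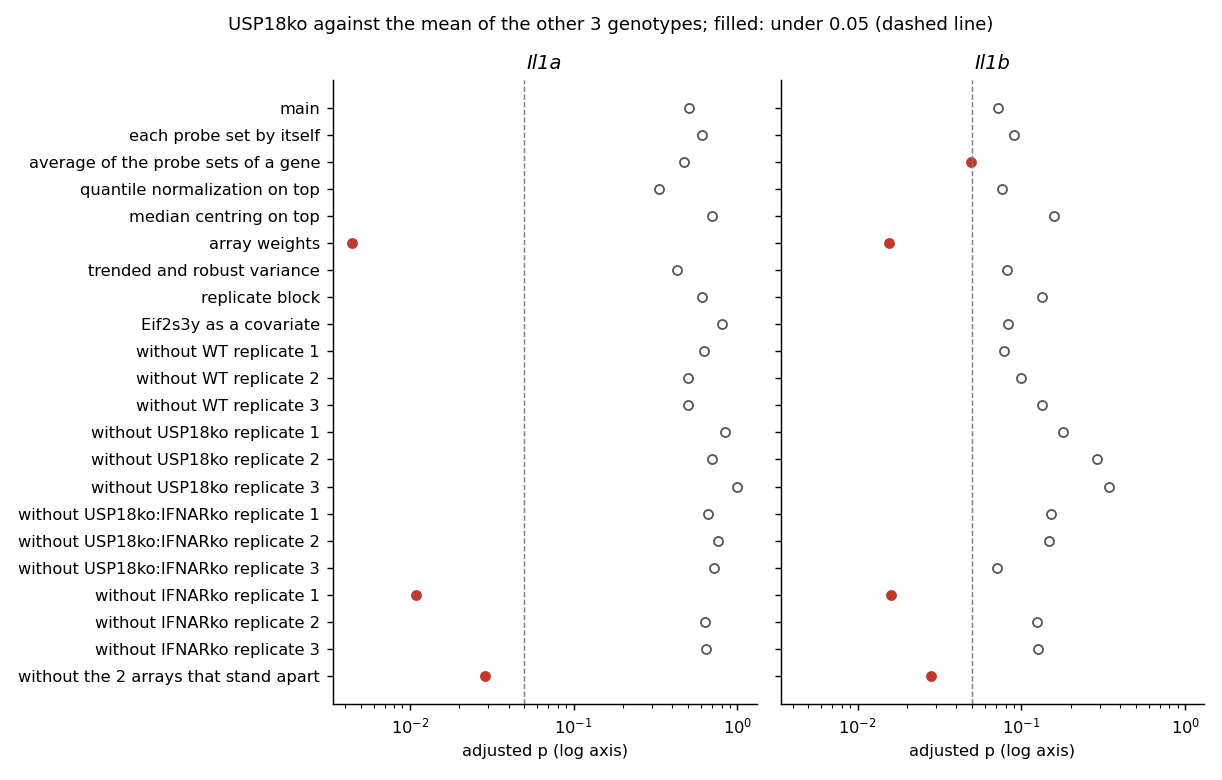
Adjusted p (log axis) of Il1a and Il1b in USP18ko against the mean of the other 3 genotypes, 1 point per setting, filled where under the threshold of 0.05 (dashed line). Il1b lies at 0.072 and Il1a at 0.504 in the fit reported, and both lie under the threshold with array weights and without IFNARko replicate 1. The fit with array weights gave a convergence warning.

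Il6, which drives the acute-phase response through STAT3, differed by 0.12 (SE 0.11, 95% interval -0.12 to 0.37, adjusted p = 1.00) in USP18ko against WT. It read 2.95, 2.91 and 2.85 in WT, 2.83, 3.29 and 2.95 in USP18ko, 2.77, 2.74 and 2.81 in IFNARko and 2.89, 2.84 and 2.86 in the double knockout. USP18ko replicate 2 was the highest of all arrays, and the other USP18ko arrays lay close to the WT values. Tnf, a master inducer of NF-kappa-B, differed by -0.01 (SE 0.15, 95% interval -0.33 to 0.30, adjusted p = 1.00). It read 5.31, 5.30 and 5.25 in WT and 5.46, 5.11 and 5.26 in USP18ko. IFNARko arrays read 5.41, 5.07 and 4.999 and double knockout arrays 5.24, 4.81 and 5.24. For both genes USP18ko arrays lay on either side of WT values. The intervals run from a fold in signal against WT of 0.92 to 1.29 for Il6 and of 0.80 to 1.24 for Tnf. A low signal may be at background, so these bounds hold for the signal and not for the transcript.

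The anti-inflammatory members were Il10 and Tgfb1. Il10, which damps macrophage cytokine output, read 3.27, 2.99 and 3.07 in WT and 3.25, 3.05 and 3.15 in USP18ko, a difference of 0.04 (SE 0.11, 95% interval -0.20 to 0.27, adjusted p = 1.00). It read 3.17, 3.01 and 2.93 in IFNARko and 3.17, 3.22 and 3.10 in the double knockout, so the 4 genotypes overlapped. Tgfb1, a growth factor with immunosuppressive actions that microglia depend on, read 5.92, 6.51 and 6.13 in WT and 6.46, 6.70 and 6.62 in USP18ko, and these groups overlapped. The difference was 0.41 (SE 0.18, 95% interval 0.007 to 0.806, adjusted p = 1.00). Tgfb1 read 5.70, 6.31 and 6.42 in IFNARko and 6.26, 6.25 and 6.41 in the double knockout. Its lowest array was IFNARko replicate 1. Of 12 measured targets of transforming growth factor beta, 0 were called in USP18ko against WT (median 0.21, Tgfbi 0.60 with adjusted p = 0.404). Of the 12, 1 had an unadjusted p under 0.05 in limma, against 4.6% of all genes.

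The interferon ligands showed no called difference while their target genes did. Ifnb1 read 4.68, 4.46 and 4.64 in WT and 4.91, 4.50 and 4.70 in USP18ko, a difference of 0.10 (SE 0.16, 95% interval -0.25 to 0.46, adjusted p = 1.00), and the groups overlapped. It read 4.93, 4.40 and 4.31 in IFNARko and 4.35, 4.55 and 4.62 in the double knockout. The highest Ifnb1 signal was again in IFNARko replicate 1. Ifng, the T and NK cell interferon that acts on a receptor of its own, read 3.39, 3.18 and 3.29 in WT and 3.26, 3.27 and 3.41 in USP18ko, a difference of 0.03 (SE 0.11, 95% interval -0.20 to 0.26, adjusted p = 1.00). It read 3.50, 3.31 and 3.23 in IFNARko and 3.33, 3.38 and 3.51 in the double knockout. The intervals run from a fold in signal against WT of 0.84 to 1.37 for Ifnb1 and of 0.87 to 1.20 for Ifng. These bounds too hold for the signal and not for the transcript. Of 19 other interferon ligand genes, 8 were measured, namely Ifna1, Ifna2, Ifna4, Ifna5, Ifna9, Ifna11, Ifnab and Ifnz. None of the 8 was called, and their differences ran from -0.26 (Ifnz, the 1 gene of the 8 with an unadjusted p under 0.05 in limma) to 0.07 (Ifna11). The 11 without a value were not analysed here, and interferon-alpha genes are near-identical copies whose probe sets may share signal.

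**Figure D3:**
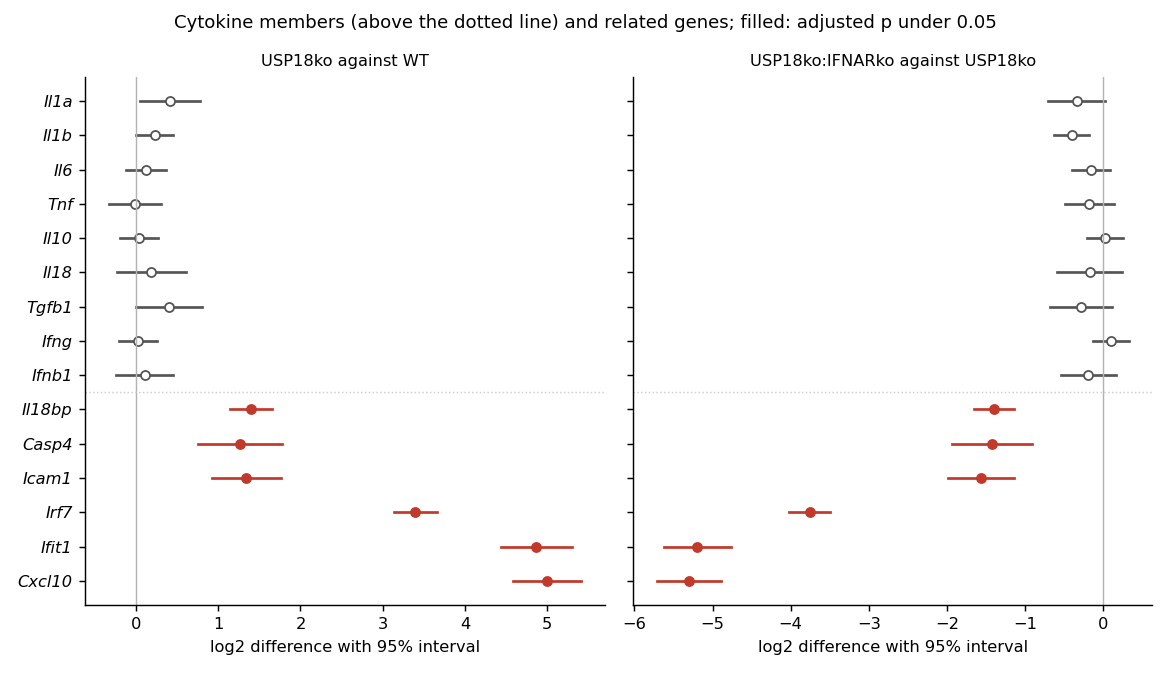
Log2 difference of USP18ko against WT for the members and related genes (left) and of the double knockout against USP18ko (right), with 95% intervals, where filled points have an adjusted p under 0.05. On the left the 9 members lie between -0.01 and 0.41 and are all open, whereas Il18bp (1.39), Casp4 (1.26) and Icam1 (1.34) are filled.

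Il18, made constitutively by several cell types, was not called, whereas its secreted inhibitor was. Il18 read 8.19, 9.02 and 8.75 in WT and 8.80, 8.98 and 8.75 in USP18ko, a difference of 0.19 (SE 0.19, 95% interval -0.23 to 0.61, adjusted p = 1.00), and the groups overlapped. It read 9.17, 8.66 and 8.70 in IFNARko and 8.63, 8.80 and 8.58 in the double knockout. Il18bp, a decoy that binds and neutralises interleukin-18, rose in USP18ko. It read 5.69, 5.90 and 5.91 in WT and 7.04, 7.17 and 7.48 in USP18ko, a difference of 1.39 (SE 0.12, adjusted p = 1.20e-05). In IFNARko it read 6.13, 6.05 and 6.09 and in the double knockout 5.89, 5.79 and 5.80, below every USP18ko array. The receptor chain Il18r1 read 3.53, 3.24 and 3.36 in WT and 3.09, 3.14 and 3.07 in USP18ko, a difference of -0.28 (adjusted p = 0.534). Of the 20 measured receptors and soluble antagonists of the members, Il18bp was the 1 called in USP18ko against WT. The list's median was 0.18, and 8 of 20 had an unadjusted p under 0.05 in limma. The shares over all genes were 1.15% called and 4.6% with an unadjusted p under 0.05. Tnfrsf1b, a receptor of tumour necrosis factor, came next with 0.74 (adjusted p = 0.052). The interleukin-1 receptor Il1r1 differed by 0.20, its antagonist Il1rn by 0.14, Tnfrsf1a by 0.27, Il10ra by 0.34, Ifngr1 by 0.09 and Tgfbr1 by 0.18, none called.

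Enzymes that activate the members were compared next. Casp4, the mouse caspase-11 that senses bacterial lipopolysaccharide inside cells, read 4.32, 4.05 and 4.10 in WT and 5.34, 5.26 and 5.65 in USP18ko, and rose by 1.26 (SE 0.23, adjusted p = 0.0134). It was the 1 gene called of 13 measured genes of activation and processing, whose median was 0.14, and 4 of the 13 had an unadjusted p under 0.05 in limma. Among all genes 1.15% were called and 4.6% had an unadjusted p under 0.05. The Casp4 call was lost without WT replicate 2 (1.21, adjusted p = 0.0556), without WT replicate 3 (1.24, adjusted p = 0.0763) or without USP18ko replicate 3 (1.15, adjusted p = 0.0951). Casp1, which cleaves the precursors of interleukin-1-beta and interleukin-18, read 5.08, 5.55 and 5.16 in WT and 6.06, 5.84 and 5.70 in USP18ko, a difference of 0.60 (adjusted p = 0.647). In IFNARko replicate 1, the array with the high actin ratio, Casp4 read 5.002 and Casp1 5.91, against 3.86 to 4.09 and 4.88 to 5.07 in the other IFNARko and double knockout arrays. The inflammasome sensor Nlrp3 differed by -0.28 and the protease Adam17, which releases tumour necrosis factor, by 0.16, both with an adjusted p of 1.00.

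**Figure D4:**
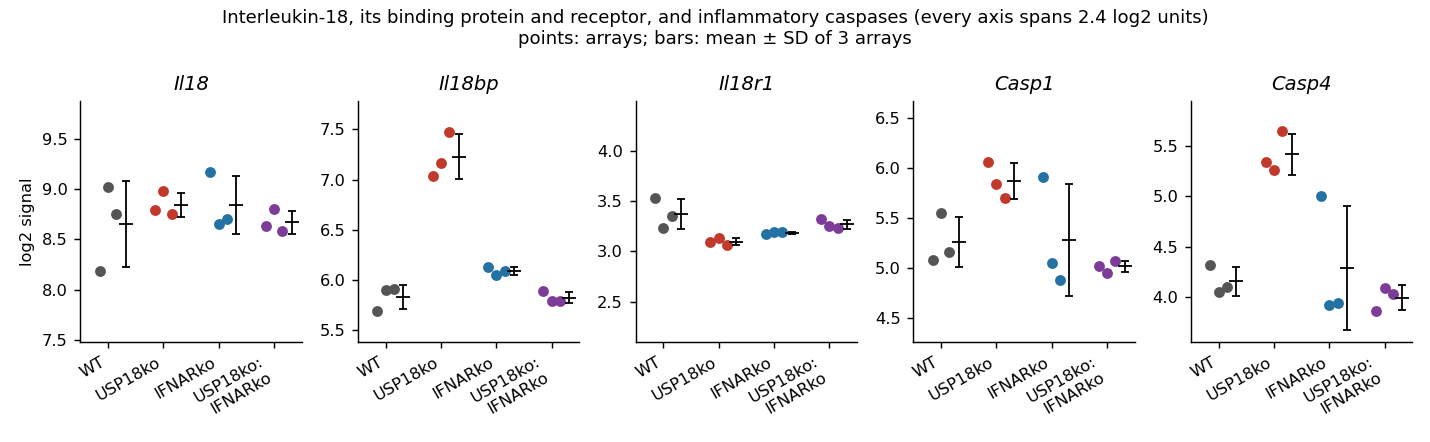
Log2 signal of Il18, its binding protein, its receptor chain and 2 inflammatory caspases in each array, with points for arrays and bars for mean ± SD of the 3 arrays of a genotype. Il18 overlaps between genotypes, whereas Il18bp reads 7.04 to 7.48 in USP18ko and 5.69 to 6.13 in all other arrays.

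Genes that the inflammatory cytokines are known to induce were then compared. Of 29 measured targets, 2 rose and 0 fell in USP18ko against WT, with a list median of 0.38, and 11 had an unadjusted p under 0.05 in limma. Over all genes, 1.15% were called and 4.6% had an unadjusted p under 0.05. Icam1, an endothelial and glial adhesion molecule, read 5.45, 5.22 and 5.36 in WT and 6.45, 7.14 and 6.46 in USP18ko, and rose by 1.34 (SE 0.19, adjusted p = 0.00168). Cebpb, a transcription factor of the acute-phase response, read 7.12, 7.75 and 7.27 in WT and 8.03, 8.25 and 8.09 in USP18ko, and rose by 0.75 (SE 0.15, adjusted p = 0.0220). The Cebpb call was lost in 5 of the 12 leave-one-out fits, those without WT replicate 1 (0.61), WT replicate 3 (0.69), USP18ko replicate 1 (0.79), USP18ko replicate 2 (0.68) or USP18ko replicate 3 (0.76). It was also lost with array weights (0.64, adjusted p = 0.120), with only the groups compared (adjusted p = 0.134) and with a filter on mean signal (adjusted p = 0.066). Both genes are also known to respond to interferons. Negative regulators that follow NF-kappa-B closely were not called, with Nfkbia at 0.27 and Tnfaip3 at -0.04. Vcam1 differed by 0.39 (adjusted p = 0.135), Socs3 by 0.39 (adjusted p = 0.849) and Serpina3n by 0.59 (adjusted p = 0.183). Lcn2, a lipocalin of the acute-phase response, read 4.05, 8.32 and 4.28 in USP18ko against 3.51 to 3.96 in the other 9 arrays. Its difference of 1.88 (adjusted p = 0.906) was 0.50 without USP18ko replicate 2. Ptgs2, the inducible prostaglandin synthase, read 5.48 in USP18ko replicate 2 and 2.85 to 3.34 in every other array, and its difference of 0.81 was -0.01 without that array. Of 37 other measured cytokines, 0 were called, with a median of 0.005, and the largest difference was that of Csf1, a growth factor of microglia, at 0.48 (adjusted p = 0.160). In that list 3 of 37 had an unadjusted p under 0.05 in limma, Il15 differed by 0.26, Il12b by -0.04 and Il27 was not measured.

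**Figure D5:**
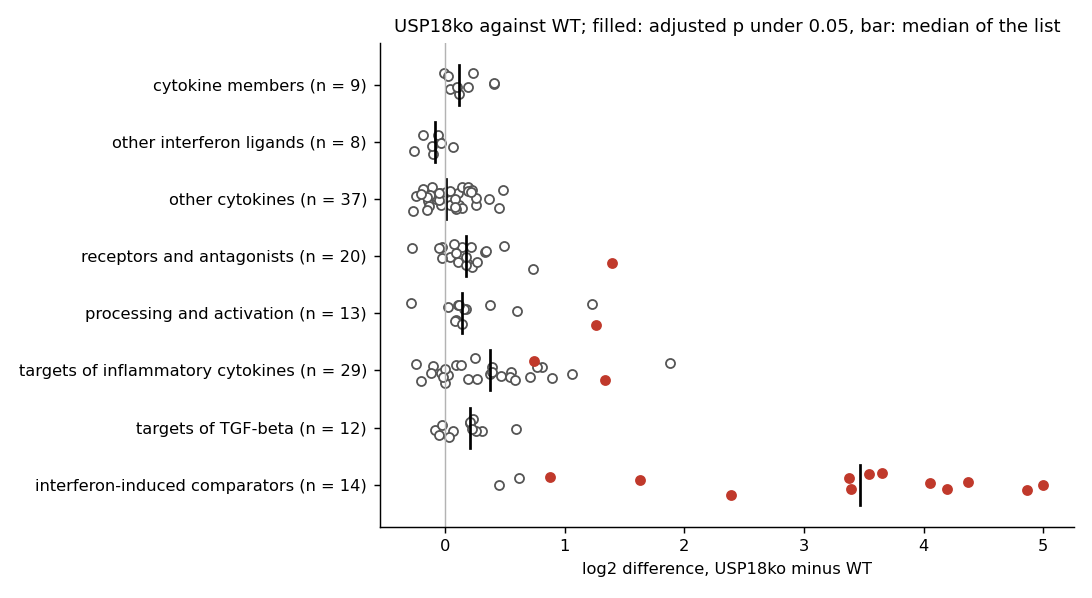
Log2 difference of USP18ko against WT for every measured gene of each list, with the list median as a bar and genes with an adjusted p under 0.05 filled. Interferon-induced comparison genes have a median of 3.47, whereas the medians of the cytokine lists lie between -0.08 and 0.38.

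Microglia and myeloid marker genes moved in the same arrays and are given beside these results. Of 9 measured microglia markers 4 rose in USP18ko against WT, where 1.15% of all genes were called (Aif1 by 1.93, C1qa by 1.79, Laptm5 by 1.25 and Itgam by 0.80). Their summed signal was 11.72 to 12.48 in USP18ko, 10.41 to 11.46 in WT, 10.83 to 11.01 in IFNARko and 10.82 to 10.89 in the double knockout (log2). Of 7 monocyte and neutrophil markers 1 rose (Plac8, by 3.35). Their sums were 9.02 to 9.46 in USP18ko, 7.07 to 7.17 in WT, 6.87 to 7.64 in IFNARko and 6.91 to 7.89 in the double knockout. The median difference of these 7 in USP18ko against WT was 0.19, and S100a8 (1.90, adjusted p = 0.112) and S100a9 (1.63, adjusted p = 0.0894) were not called. Of 4 perivascular macrophage markers 1 rose (Ms4a7, by 1.74), with sums of 8.422 to 8.85 in USP18ko and 7.27 to 7.82 in WT. IFNARko arrays summed to 7.93 to 8.420, above every WT array, and double knockout arrays to 7.37 to 7.67. The C1qa call did not hold when WT replicate 3 (1.86), USP18ko replicate 2 (1.57) or its replicate 3 (1.85) was left out, and that of Itgam did not hold without WT replicate 3 (0.77). None of 11 T and NK cell markers was called, with sums of 8.43 to 8.62 in USP18ko and 8.44 to 8.59 in WT, and 0 of the 11 had an unadjusted p under 0.05 in limma. The 4 neuron markers, which check the labelled tissue, summed to 13.02 to 13.22 in USP18ko and 13.13 to 13.31 in WT. The part of cell composition in the values of Il1a, Il1b, Casp4 and Icam1 was not tested.

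The double knockout was compared with USP18ko to ask which differences remained without the receptor. Il18bp fell by 1.40 (adjusted p = 8.92e-06), Casp4 fell by 1.43 (adjusted p = 0.00436), Icam1 by 1.57 and Cebpb by 0.85. None of the 9 members was called (0 of 9, against 1.51% of all genes), and 1 of the 9, Il1b, had an unadjusted p under 0.05 in limma (4.95% of all genes). Il1b was lower by 0.41 in the double knockout (SE 0.10, 95% interval of the difference -0.63 to -0.18, adjusted p = 0.107). Il1a differed by -0.34 (95% interval -0.71 to 0.02) and Tgfb1 by -0.29 (95% interval -0.69 to 0.11), both with an adjusted p of 1.00. For these 3 members every double knockout array lay below every USP18ko array, a pattern of 8.09% of all genes. The other 6 members differed by -0.19 (Ifnb1) to 0.09 (Ifng). Without IFNARko replicate 1, Il1b passed the threshold here too (-0.41, adjusted p = 0.032). It did not pass with a covariate for Eif2s3y (-0.47, adjusted p = 0.256) or with the replicate block (-0.41, adjusted p = 0.188). Nor did it pass without USP18ko replicate 2 (-0.38, adjusted p = 0.341) or USP18ko replicate 3 (-0.40, adjusted p = 0.344). Of the related lists, 3 of 20 receptors and antagonists fell (Il18bp, Il10rb by 0.49 and the knocked-out Ifnar1), 1 of 13 activation genes and 4 of 29 cytokine targets (also Osmr by 1.00 and Serpina3n by 1.02). The Il10rb call was lost in 9 of the 12 leave-one-out fits (-0.55 to -0.41), all but those without WT replicates 1 and 2 or IFNARko replicate 1. With the replicate block Il10rb gave -0.49 (adjusted p = 0.0557), and its call was also lost with each probe set tested by itself, the signal filter, median centring or the trended variance. That of Osmr was lost in 7 (-1.05 to -0.80), those without WT replicates 1 or 3, USP18ko replicates 1 or 2 or any double knockout array. With its probe sets averaged Osmr gave -0.60 (adjusted p = 0.120), and its call was also lost with each probe set by itself, quantile normalization or median centring. This comparison shares the USP18ko arrays with the comparison to WT, so the 2 are not independent.

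With a covariate for Eif2s3y, whose signal differed between these genotypes, Casp4 differed by -1.43 (adjusted p = 0.0534) and Cebpb by -0.61 (adjusted p = 0.136) in the double knockout against USP18ko. In the same fit Il10rb differed by -0.38 (adjusted p = 0.573) and Osmr by -0.97 (adjusted p = 0.321), so neither was called. Cebpb also lost its call without double knockout replicate 1 (-0.80, adjusted p = 0.0505).

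Differences among the genotypes without a strong interferon response were small for all members. In IFNARko against WT they ran from -0.16 (Il1b) to 0.19 (Il18), with a median of -0.05, and 0 of 9 were called (0.00807% of all genes). Il6 was the 1 member with every IFNARko array below every WT array, against 6.74% of all genes. In the double knockout against WT they ran from -0.19 (Tnf) to 0.12 (Tgfb1), with a median of 0.02, and 0 of 9 were called (0.0161% of all genes). Il1b and Tnf were the 2 members lower in every double knockout array, against 10.3% of all genes. In the double knockout against IFNARko they ran from -0.17 (Il18) to 0.16 (Tgfb1), with a median of -0.01, and 0 of 9 were called (0% of all genes). Il6 was the 1 member higher in every double knockout array, against 9.28% of all genes. At an unadjusted p under 0.05 in limma 0 of 9 members passed in each of these 3 comparisons, against 9.79%, 4.09% and 8.25% of all genes in the order given. The interaction, which asks whether loss of Usp18 had another effect without Ifnar1 than with it, ran from -0.44 (Il1a, adjusted p = 0.941) to 0.09 (Il10). In it 0 of 9 members were called and 0 had an unadjusted p under 0.05, against 0.847% and 4.77% of all genes. The 95% interval of the Il1a interaction ran from -0.95 to 0.08.

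The members differed in how much their arrays scattered. The SD within genotypes was 0.27 for Il18, 0.26 for Tgfb1, 0.23 for Il1a, 0.22 for Ifnb1 and 0.19 for Tnf, against a median of 0.17 over all genes. It was 0.12 for Il6, 0.11 for Il10 and Ifng and 0.10 for Il1b. Differences of Il1b were thus read against the smallest scatter of the 9. IFNARko replicate 1 was the highest of the 12 arrays for 3 members (Il1a, Il18 and Ifnb1) and the lowest for Tgfb1, and USP18ko replicate 2 was the highest for 3 (Il1b, Il6 and Tgfb1).

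The genes most alike in pattern were listed for 3 members, picked by a fixed rule on the mean signal of their probe sets, which ranks no transcript levels. The correlations are a description over the 12 arrays, which also share array quality. For Il18 the genes were Hacd2 (Pearson r = 0.963), Tmem243 (0.956) and Naa20 (0.949). Without the 2 arrays farthest from the Il18 median, WT replicate 1 and IFNARko replicate 1, these were 0.947, 0.903 and 0.868. For Tgfb1 they were Scamp2 (0.953), Snrpb (0.951) and Clic1 (0.930), and without the same 2 arrays 0.852, 0.854 and 0.836. For Tnf they were Krtap3-1 (0.955), Ankzf1 (0.946) and Sytl1 (0.937), and without double knockout replicate 2 and IFNARko replicate 3 they were 0.926, 0.890 and 0.884.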

How the data were processed

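Whole-brain RNA of 12 samples was measured on 1-colour Affymetrix 3' arrays. The authors deposited 1 log2 signal per probe set and array, and the submitters' processing notes name the R package affy. No version, background correction or normalization is stated in the sources used here. Base 2 was inferred from the values (2.36 to 13.81, array medians 6.98 to 7.07). Of 22690 probe sets, 64 were controls, 20380 had 1 gene in the platform annotation, 691 had several and 1555 were unlisted. Each gene was represented by its probe set with the highest mean, giving 12393 genes.

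Genotypes were taken from the labels. Genes were tested with limma 3.58.1 in R 4.3.3 (lmFit, contrasts.fit, eBayes) in 1 fit of 12 arrays with 8 residual and 4.67 prior degrees of freedom, for 7 two-sided comparisons. With 3 arrays a group the smallest exact two-sided p is 0.1, so calls depend on limma's sharing of variance between genes. The number of arrays limits the precision. The script was tested on simulated data.

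The members and the gene and marker lists were chosen with earlier results of these data known. Named were all members, the called genes of each list (up to 4 by smallest p) and a fixed set of receptors, activators, targets and comparison genes. List extremes and other genes named beside them (Tnfrsf1b, Il10rb, Osmr, Tgfbi, Ifnz, Ifna11) were chosen after their values were seen. Same-numbered replicates of USP18ko and the double knockout deviated together (3 pairs, correlations 0.14 to 0.27), so the replicate block is given there where it ends a call. In no other comparison of genotypes did every pair exceed 0.1 (lowest -0.15), and the labels describe no pairing. Alternatives were other probe set rules, a signal filter, further normalization, array weights, another variance model, a replicate block, an Eif2s3y covariate, 2 groups alone and each array left out.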

Additional observations from a re-analysis of the deposited data

Results flagged for a closer look

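For 10 of the 46 named genes measured, the effect of losing Usp18 differed between mice with and without Ifnar1, by the interaction test of limma. Over all genes 0.847% had a called interaction. Some of the 46 were named because they were called in USP18ko against WT. That difference is part of the interaction, so the count of 10 cannot be weighed against all genes or against the members. The interaction, on the log2 scale, was -5.12 for Cxcl10, -4.87 for Ifit1, -4.06 for Ifit3 and -3.26 for Irf7, all interferon-induced. It was -3.71 for Plac8, -2.17 for Aif1, -1.97 for Ms4a7 and -1.61 for Laptm5, which stood in the myeloid marker lists. It was -1.82 for the adhesion molecule Icam1 and -1.66 for the interleukin-18 inhibitor Il18bp. Of the 9 cytokine members, 0 had a called interaction, and 0 had an unadjusted p under 0.05 in limma. Xist set the double knockout apart from USP18ko and IFNARko arrays, and Eif2s3y set its replicates 1 and 3 clearly apart. WT replicate 1 read like double knockout replicates 1 and 3 (10.17 for Xist, 3.18 for Eif2s3y). With Eif2s3y as a covariate the interaction was called for 51 genes, against 105 without it. In that fit 7 of the 10 genes were called, and Aif1 (-1.31, adjusted p = 0.702), Laptm5 (-0.99, adjusted p = 0.709) and Icam1 (-1.68, adjusted p = 0.132) were not. The Aif1 call was also lost in 6 leave-one-out fits (without USP18ko replicates 2 or 3, any double knockout array or IFNARko replicate 1) and that of Laptm5 in 5 (the same, except IFNARko replicate 1).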

How the results depend on the processing

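In USP18ko against WT, 0 members were called in the fit reported and under every alternative run. Not every alternative could have added a call. The rule of an absolute log2 difference of at least 1 only narrows the calls of the fit reported, and the signal filter tested Il18 alone. In the double knockout against USP18ko the count was 0, but 2 with array weights (Il1a -0.33, Il1b -0.39), 1 with only the groups compared (Il1a, -0.34) and 0 to 1 with an array left out (1 without IFNARko replicate 1). Against the mean of the other 3 genotypes it was 0, but 1 with averaged probe sets (Il1b, 0.34, adjusted p = 0.049) and 2 with array weights. Each member has 1 probe set, so averaging left the Il1b values unchanged, and its adjusted p moved only through other genes. The count was also 2 without IFNARko replicate 1 and double knockout replicate 2, an alternative chosen after seeing the data. With an array left out it was 0 to 2 (2 without IFNARko replicate 1). Of 1375 alternative values of member differences, 82 had the other sign and 0 of these was called in either fit. Many of the 1375 could not differ from the reported value, since changes to the variance model or to arrays of other genotypes leave a difference as it is. The 82 of 1375 is thus no measure of how stable the signs are. An uncalled value was counted as moved only past 1 SD between replicates, and 25 moved so far. The largest value of the other sign was 0.28, for Il18 in the double knockout against IFNARko with the Eif2s3y covariate (-0.17 in the fit reported). With the replicate block 0 members were called in any of the 7 comparisons. In USP18ko against WT 142 genes were called with that replicate block and 143 without, and in the double knockout against USP18ko 178 and 187. Of the related genes named, the block ended 1 call (Il10rb) in these comparisons and the interaction. The interaction called 105 genes, but 51 with the Eif2s3y covariate and 20 with the filter. The filter, on mean signal, tested 7436 genes and not 12393. It left Ifit1, Irf7, Cxcl10, Il18bp and Icam1 untested, so its lower counts include genes that were not tested rather than calls that failed. The signal filter kept 1 of the 9 members, Il18, and left 28 genes called in USP18ko against WT. In the double knockout against USP18ko, 187 genes were called, but 37 with the filter, 500 with array weights, 287 with only the groups compared, 124 with the Eif2s3y covariate and 128 at an absolute log2 difference of at least 1. The array weights fit gave a convergence warning, and it called 814 genes in the double knockout against IFNARko, where the fit reported called 0. Signal over background could not be examined, so low members have no detection limit.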

Other observations

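Within USP18ko, 1 array stood above the rest for many targets of the inflammatory cytokines, a pattern seen after the values were examined. USP18ko replicate 2 was the highest of the 12 arrays for 15 of 29 measured targets, whereas 3.36% of all genes had their highest value there. Lcn2 read 8.32 in it, 4.05 above the highest other array, and the acute-phase gene Saa3 read 7.02 against 4.29 to 5.27 in the other 11 arrays. The neutrophil chemokine Cxcl1 read 5.01 against 2.87 to 3.64, and Cebpd, an acute-phase transcription factor, 8.24 against 6.32 to 7.31. Il6 was also highest in this array (3.29). Not all targets took part: Tnfaip3 read 4.91 there against 4.61 to 5.13 elsewhere, and Cxcl2 3.13 against 2.88 to 3.71.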
